A study of Mus musculus with 3 samples.

Results

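Semaphorins, ephrins, Slits and netrins are cues that guide growing axons and migrating cells, and each binds its own set of receptors on the responding cell. Their genes were examined in wild type (WT) mouse embryo fibroblasts (MEFs). All rows of the gene count table whose symbol names a class 3 to class 7 semaphorin, a neuropilin, a plexin, an ephrin, an Eph receptor, a Slit, a Robo, a netrin or an Unc5 receptor were taken. This gave 68 of 21782 genes, 35 for ligands and 33 for receptors, in 17 families. The rule reads symbols and no counts.

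Semaphorins signal through plexins, and the secreted class 3 semaphorins need neuropilins as co-receptors for most of their actions. Ephrins are held in the membrane, the A type by a lipid anchor and the B type by a transmembrane domain, so that ephrins and Eph receptor tyrosine kinases signal where cells touch. Secreted Slits bind Robo receptors and mainly repel, whereas netrins attract through Dcc or Neo1 and repel through Unc5 receptors. Outside the nervous system the same proteins take part in the shaping of blood vessels, bone, lung and other mesenchyme-rich organs, and they act on the actin cytoskeleton and on integrin adhesion.

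The study addressed how cohesin variants and their regulators are distributed along the genome of MEFs, and RNA-seq of unperturbed cells was one of its data sets. Primary MEFs of WT genotype came from E12.5 embryos and were grown in DMEM with 20% serum. Asynchronous cultures of 3 clones gave 1 library of polyA RNA each, and no treatment, time course or other genotype belongs to these libraries. Whether the clones came from separate embryos is not given in the sources used here, so the spread between libraries may be partly technical.

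Total counts were 25261357, 22594316 and 24791198 in clones 1, 2 and 3. Counts were scaled to CPM (counts per 1e6 counts) with library sizes corrected by the TMM method of edgeR. At this depth 3 counts, the upper limit that a count of 0 allows, correspond to 0.119 to 0.133 CPM. Genes that reached 1 CPM in each of the libraries were counted as expressed, and levels of different genes are compared only in CPM per kb of annotated exon. All 8 markers of fibroblasts examined were expressed, with Col1a1, a chain of type I collagen, at 584920 to 796323 counts. Markers of epithelium were expressed for 1 of 5 genes, those of Schwann cells for 1 of 4, those of neurons for 2 of 7 and those of endothelium for 1 of 6. Macrophage markers were expressed for 8 of 8 genes in the table, all highest in clone 2, with summed levels of 222, 1103 and 196 CPM in clones 1, 2 and 3.

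RNA of most guidance genes was detected in these cultures. Of the 68 genes, 53 (77.9%) were expressed, against 52.2% of all genes in the table. Ligands passed in 30 of 35 cases and receptors in 23 of 33. The expressed guidance genes were moderate rather than high in level. Their median was 3.46 CPM per kb, below the 5.46 CPM per kb of the 11341 expressed genes with an annotated length, and 11 of them lay above the upper quartile of expressed genes, 14.1 CPM per kb. Together, the 68 genes took 5553, 5898 and 5538 CPM in the 3 clones, so their total was nearly equal between libraries.

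Receptors summed to more than ligands. The 33 receptor genes had a summed level of 593 ± 15.9 CPM per kb (SD, n = 3 clones), and the 35 ligand genes had 197 ± 13.5 CPM per kb, with no overlap between clones. The split was unequal among the signalling systems. Semaphorin receptors summed to 304 ± 12.6 CPM per kb against 77.6 ± 7.80 for semaphorins, and Unc5 receptors to 173 ± 16.9 CPM per kb against 12.49 ± 1.07 for netrins. For Eph receptors and ephrins the sums were 113 ± 5.57 and 80.2 ± 1.99 CPM per kb. Slits went the other way, with 27.0 ± 5.69 CPM per kb against 2.66 ± 0.0900 for Robo receptors. Per kb of annotated exon, 1 gene outweighed all the others together in every clone in 13 of the 16 families with several members. By the length of 1 transcript, described further on, this did not hold for the EphB and Slit families.

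**Figure D1:**
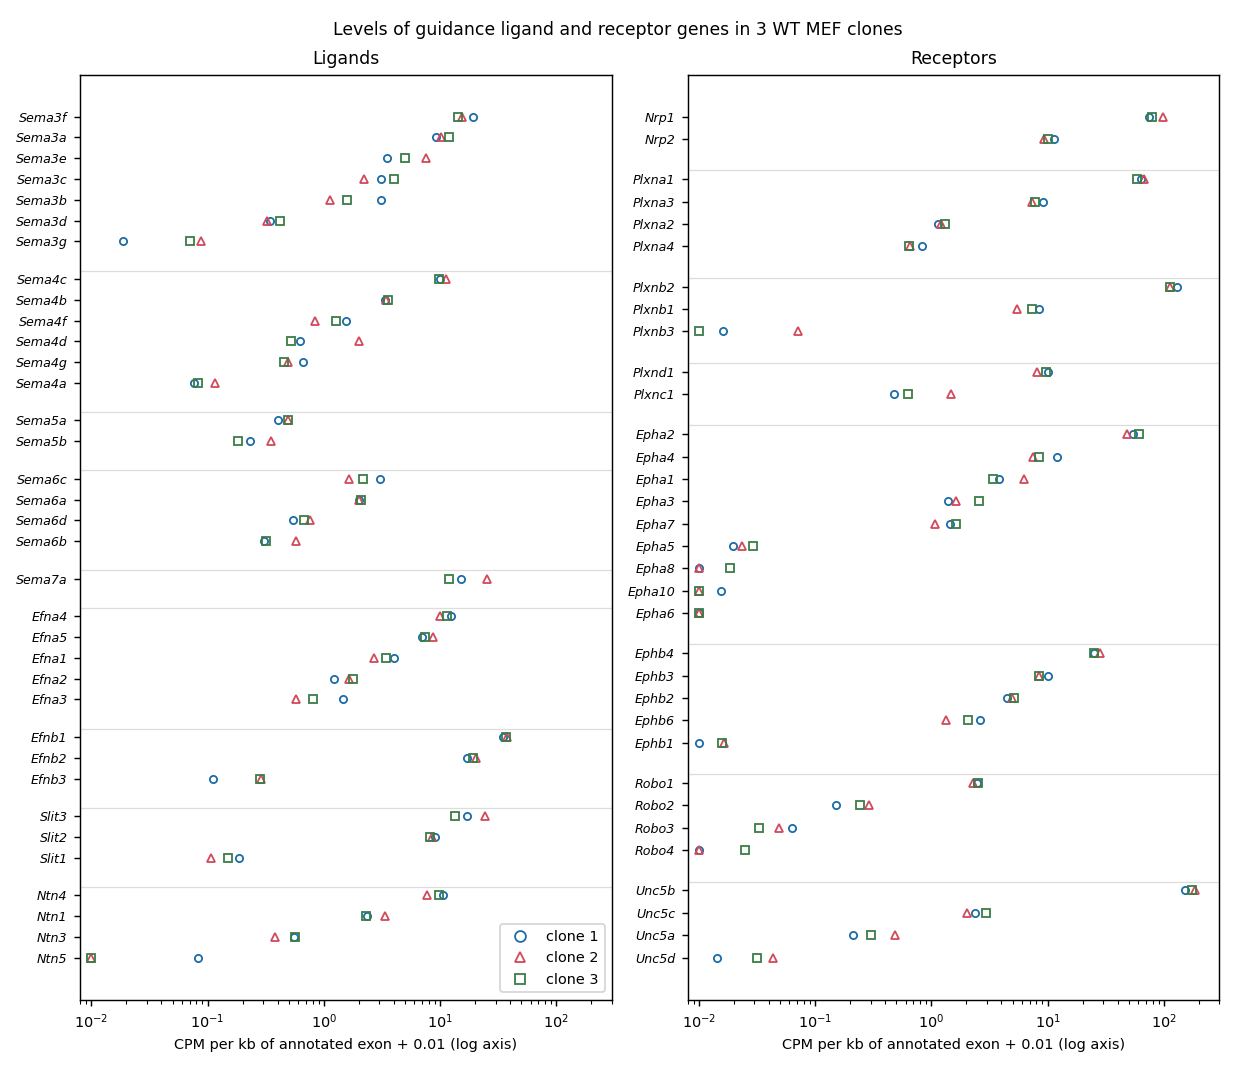
Level of each of the 68 guidance genes in clone 1 (circles), clone 2 (triangles) and clone 3 (squares), in CPM per kb of annotated exon plus 0.01 on a log axis, with ligands on the left and receptors on the right, grouped by family and ordered by mean. The clones lie close together for most genes, and Unc5b, Plxnb2 and Nrp1 have the highest mean levels, at 170, 119 and 84.0 CPM per kb.

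Among the receptors for netrins, Unc5b stood at the top of all 68 genes. Unc5b, a repulsive netrin receptor that also acts in vessel branching, is a gene of the minus strand (chromosome 10, 60762593 to 60831581, in GRCm38 like all positions given). It had 23677, 26211 and 27323 counts in clones 1, 2 and 3. Its level was 152, 186 and 173 CPM per kb (mean 170 ± 16.9, SD, n = 3), and 225 of the expressed genes had a higher mean. It carried 98.4% ± 0.260 of the summed level of the 4 Unc5 genes. Unc5c, the next member, had 1116, 862 and 1422 counts, or 2.43 ± 0.477 CPM per kb. Per kb of all annotated exons, Unc5b exceeded Unc5c at least 58.8 times in every clone, and by the length of 1 transcript, described further on, 12.7 to 20.2 times. Unc5a was low at 21, 45 and 31 counts, and Unc5d had 1, 7 and 5.

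Netrin genes were far lower in RNA level than Unc5b. Ntn4, a netrin related to laminins and found in basement membranes, led with 981, 647 and 915 counts, or 10.6, 7.67 and 9.68 CPM per kb. Ntn1, the classical netrin of the floor plate, had 368, 473 and 367 counts and 2.67 ± 0.580 CPM per kb (SD, n = 3), so the clones of Ntn4 and Ntn1 did not overlap. Ntn3 stood at 0.489 ± 0.1003 CPM per kb, and Ntn5 had 4 counts in clone 1 and 0 in the others. Of the exon bases of Ntn5, 23.4% overlap genes on the opposite strand, with Sec1 the largest overlap. Without strand, reads of Ntn5 and of these genes cannot be told apart there. The summed level of Unc5 genes was 11.4, 16.5 and 14.0 times that of the netrins in clones 1, 2 and 3.

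The other netrin receptors were split. Dcc, the receptor through which Ntn1 attracts axons, had 7, 4 and 5 counts and was not expressed. Its relative Neo1 had 5033, 3499 and 5365 counts, a level of 21.8 ± 3.51 CPM per kb (SD, n = 3). Unc5b exceeded Neo1 by 6.55, 10.4 and 7.09 times per kb in the 3 clones. Flrt2, a membrane protein that binds Unc5 receptors, had 3646, 9469 and 5002 counts, and its level of 33.0 ± 18.8 CPM per kb varied 2.86-fold between clones with the highest value in clone 2. All 3 Flrt genes were highest in that clone.

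Plexins and neuropilins formed the largest block of expressed receptors. Plxnb2, a receptor of class 4 semaphorins found in many tissues, had 24689, 19815 and 22197 counts in clones 1, 2 and 3 (chromosome 15, 89155549 to 89180788, minus strand). Its level was 129, 114 and 114 CPM per kb (mean 119 ± 8.60, SD, n = 3), or 94.4% ± 0.857 of the plexin B total. Plxnb1, the receptor of Sema4d, followed with 2002, 1174 and 1771 counts and 7.05 ± 1.504 CPM per kb. Plxnb3 was near the floor with 1, 9 and 0 counts. The 3 plexin B genes came in the same order in every clone.

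Nrp1, the neuropilin that serves both class 3 semaphorins and VEGF, had 18182, 21679 and 19537 counts. The gene spans 128358604 to 128503363 of chromosome 8 (plus strand). Its level was 74.8, 98.3 and 79.1 CPM per kb (mean 84.0), with clone 2 the highest. Nrp2, its paralog with a preference for other class 3 semaphorins, had 3359, 2500 and 3021 counts and 10.3 ± 1.04 CPM per kb, with clone 2 the lowest. Nrp1 thus exceeded Nrp2 by 6.55, 10.5 and 7.83 times in clones 1, 2 and 3.

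Plexins A carry the signal of neuropilins and of class 6 semaphorins. Plxna1 (chromosome 6, 89316314 to 89362620, minus strand) had 14338, 13810 and 13511 counts, or 63.7, 67.6 and 59.1 CPM per kb. It held 86.4% ± 1.55 of the plexin A total (SD, n = 3). Plxna3 was second at 1786, 1289 and 1555 counts and 8.06 ± 0.959 CPM per kb, and Plxna2 and Plxna4 had 1.21 and 0.698 CPM per kb on average. The 4 genes kept this order in each clone without overlap. Genes on the opposite strand, of which Gm26811 has the largest overlap, cover 10.7% of the exon bases of Plxna1. The strand setting of the counting is not given in the sources used here.

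Of the remaining plexins, Plxnd1, a receptor of Sema3e in vessels, had 1817, 1319 and 1776 counts and 9.22 ± 1.06 CPM per kb (SD, n = 3). Plxnc1, the receptor of Sema7a, was lower, with 96, 274 and 131 counts, or 0.463, 1.46 and 0.621 CPM per kb. The value of Plxnc1 in clone 2 stood above those of both other clones.

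Secreted class 3 semaphorins were represented by 6 expressed genes of 7. Sema3f led with 2454, 1822 and 1868 counts, or 19.0, 15.5 and 14.2 CPM per kb (mean 16.3 ± 2.47, SD, n = 3). Sema3a, which collapses growth cones through Nrp1, had 3160, 3208 and 4197 counts and 10.5 ± 1.42 CPM per kb. The order of the pair was the same in each clone, but the margin ranged from 1.19 to 2.07 times. Sema3e, Sema3c, Sema3b and Sema3d followed with means of 5.33, 3.10, 1.93 and 0.352 CPM per kb. The ranges over clones of Sema3e and Sema3c overlapped, as did those of Sema3c and Sema3b. Sema3g had 1, 8 and 7 counts and was not expressed. The class 3 sum was steady, at 38.2, 37.0 and 37.2 CPM per kb, while the shares of its members moved: Sema3f made up 49.7% of it in clone 1, 42.0% in clone 2 and 38.2% in clone 3.

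Membrane-bound semaphorins were led by Sema7a and Sema4c. Sema7a, a lipid-anchored semaphorin that binds Plxnc1 and integrins, spans 57940112 to 57962865 of chromosome 9 (plus strand). It had 1246, 1867 and 989 counts, which is 15.2, 25.1 and 11.9 CPM per kb (mean 17.4 ± 6.88, SD, n = 3). Sema4c, a ligand of Plxnb2, had 1141, 1165 and 1139 counts and 10.4 ± 0.779 CPM per kb, and in its family Sema4b came next with 472, 437 and 509 counts and 3.46 ± 0.104 CPM per kb. Sema4f, Sema4d and Sema4g were at 1.21, 1.04 and 0.527 CPM per kb, with overlapping ranges between neighbours. Sema4a had 9, 13 and 10 counts and was not expressed.

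Classes 5 and 6 were low. Sema6c had 445, 219 and 321 counts and 2.27 ± 0.699 CPM per kb (SD, n = 3), and Sema6a had 432, 399 and 463 counts and 2.03 ± 0.0548 CPM per kb. Sema6c was the higher one in 2 of 3 clones, so the order of this pair was not settled. Sema6d and Sema6b stood at 0.651 and 0.391 CPM per kb. Sema5a had 181, 203 and 227 counts and Sema5b 39, 54 and 31 counts, which gave 0.451 ± 0.0528 and 0.244 ± 0.0848 CPM per kb.

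**Figure D2:**
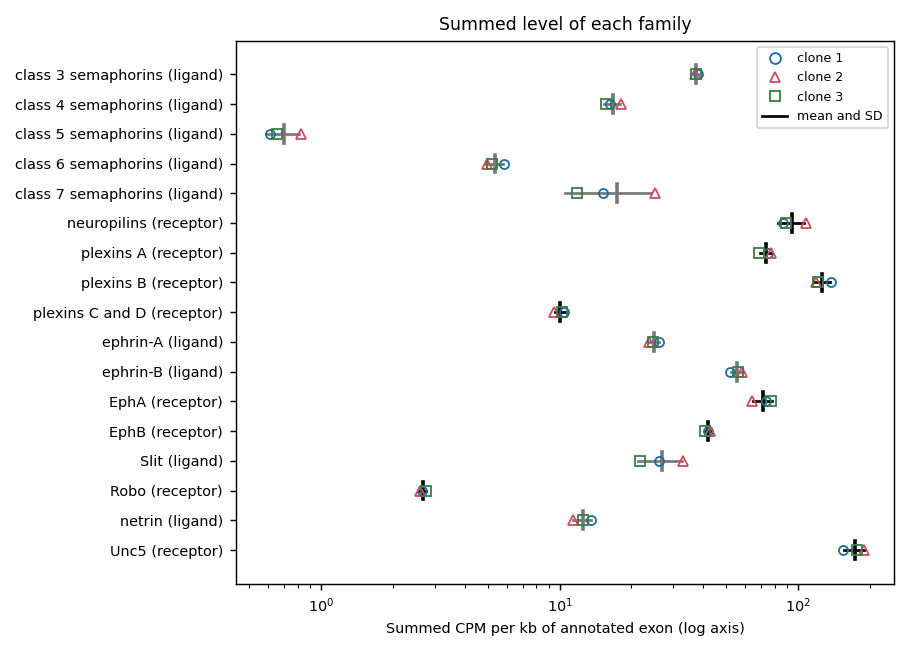
Summed level of each of the 17 families in clones 1, 2 and 3, in CPM per kb of annotated exon on a log axis, with the mean (vertical bar) and SD (horizontal bar) in grey for ligand families and in black for receptor families. Unc5 receptors (173) and plexins B (126) have the highest sums, and class 5 semaphorins (0.695) and Robo receptors (2.66) the lowest. The clones spread most for Sema7a, the only class 7 gene.

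Eph receptors of the A type were dominated by Epha2. Epha2, an Eph receptor common outside the nervous system, had 6346, 5047 and 7188 counts in clones 1, 2 and 3. The gene spans 141301240 to 141329384 of chromosome 4 (plus strand). Its level was 54.6, 47.9 and 60.9 CPM per kb (mean 54.5 ± 6.50, SD, n = 3), or 76.1% ± 2.68 of the EphA total. Epha4, which binds ephrins of both types, had 2421, 1346 and 1721 counts and 9.32 ± 2.46 CPM per kb. Epha1, Epha3 and Epha7 had means of 4.48, 1.85 and 1.37 CPM per kb. The remaining 4 of the 9 EphA genes were not expressed: Epha5 had 4, 5 and 8 counts, and Epha6, Epha8 and Epha10 had at most 1 count in any clone.

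EphB receptors were more evenly spread. Ephb4, known as the partner of Efnb2 between veins and arteries, had 2896, 2960 and 2957 counts, or 25.1, 28.3 and 25.2 CPM per kb (mean 26.2 ± 1.80, SD, n = 3). Ephb3 had 1643, 1262 and 1414 counts and 8.94 ± 0.883 CPM per kb. Ephb2 and Ephb6, the latter a receptor without kinase activity, had 4.81 and 1.99 CPM per kb, in the same order in all clones. Ephb1 had 0, 1 and 1 counts, below the floor.

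Of the 3 ephrin-B genes, Efnb1 and Efnb2 were expressed. The X-linked Efnb1 (99136130 to 99148991, plus strand) had 2965, 2914 and 3200 counts, or 34.6, 37.4 and 36.7 CPM per kb. Efnb2, on chromosome 8, had 2909, 3134 and 3332 counts, or 17.1, 20.3 and 19.2 CPM per kb. The counts of the pair were close, and the ratio of 1.93 ± 0.0903 (SD, n = 3) in level came with the division by exon length. Efnb3 had 8, 20 and 22 counts and was not expressed.

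All 5 ephrin-A genes were expressed. Efna4 had 496, 363 and 459 counts and 11.3 ± 1.21 CPM per kb (SD, n = 3). Efna5, a repellent of retinal axons, had 704, 793 and 747 counts and 7.70 ± 0.903 CPM per kb. Efna4 was the higher per kb in each clone, by 1.15 to 1.78 times. Efna1, Efna2 and Efna3 followed at 3.39, 1.54 and 0.934 CPM per kb. Antisense transcripts cover 10.5% of the exon bases of Efna4 and 14.1% of those of Efna3. Summed by type, EphA receptors exceeded ephrin-A ligands 2.88 ± 0.212 times, whereas EphB receptors were at 0.760 ± 0.0470 of the ephrin-B level.

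Slit genes were higher than Robo genes. Slit3 had 2550, 3341 and 2068 counts, or 16.9, 24.4 and 13.5 CPM per kb (mean 18.3 ± 5.59, SD, n = 3), and Slit2 had 5658, 4896 and 5238 counts, or 8.95, 8.54 and 8.15 CPM per kb (mean 8.55 ± 0.4002). Slit2 had more reads and Slit3 more reads per kb of exon, since the annotated exons of Slit2 cover 25433 bp and those of Slit3 6067 bp. Slit1, the most neural of the Slits, had 26, 13 and 21 counts. Robo1 was the highest of the Robo genes at 1002, 845 and 1039 counts and 2.40 ± 0.117 CPM per kb, and Robo2 had 60, 107 and 100 counts and 0.218 ± 0.0698 CPM per kb. Robo3, which controls midline crossing, had 9, 6 and 4 counts. Robo4, the endothelial Robo, had 0, 0 and 2. Of the 6 endothelial markers, which summed to 10.9 to 22.7 CPM, Tie1 had 0 counts in every clone, Pecam1, Cdh5 and Tek had 2 to 15, Kdr was expressed at 163, 214 and 314, and Emcn had 307, 4 and 242.

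The 15 guidance genes that were not expressed had between 0 and 45 counts per clone. Epha6, Epha8, Epha10, Ephb1 and Robo4 had 3 counts or fewer in every clone, so that their transcripts were not detectable above the floor at this depth. The other 10, Sema3g, Sema4a, Plxnb3, Efnb3, Epha5, Slit1, Robo3, Ntn5, Unc5a and Unc5d, reached between 4 and 45 counts in their highest clone. Unc5a was the highest of them, with 1 CPM or more in clones 2 and 3. Of the 7 neuronal markers, Tubb3 (1692 to 1802 counts) and Stmn2 (107 to 177) were expressed, and Elavl3, Snap25 and Dcx had at most 3 counts in any clone.

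Several members sit together in the genome but differed in level. Efna4, Efna3 and Efna1 lie in a row on the minus strand of chromosome 3, between 89271733 and 89338028, with levels of 11.3, 0.934 and 3.39 CPM per kb. On chromosome 9, Sema3b (107597674 to 107609229) and Sema3f (107681500 to 107710475) are near neighbours on the minus strand, with 1.93 and 16.3 CPM per kb. Both of these were highest in clone 1. Sema3d, Sema3a, Sema3e and Sema3c follow one another on the plus strand of chromosome 5 from 12383385 to 17730268, at 0.352, 10.5, 5.33 and 3.10 CPM per kb, and their highest clones were clone 3 for Sema3d, Sema3a and Sema3c and clone 2 for Sema3e.

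The next question was how far the clones differed. A Pearson chi-square test set the 3 counts of a gene against what the scaled library sizes predict. It was run on the 12218 genes that had 10 counts or more in every library, with Benjamini-Hochberg adjustment over them, and 62.5% passed at 0.05. Among guidance genes, 55 could be tested and 46 (83.6%) passed. Their median fold of the highest over the lowest clone was 1.41, against 1.24 over all tested genes. The test compares libraries and not conditions. Its error is counting noise alone, with each read taken as an independent molecule, so its p-values are no measure of the spread within a clone, and for high counts it passes small differences. Efnb1 passed at a fold of 1.08, whereas Sema4b (1.06) and Sema6a (1.05) did not pass. Also not passing were Sema3d, Sema5a, Plxna2, Efna2, Slit1, Robo1 and Ntn3, with folds of 1.10 to 1.82.

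Differences of at least 2-fold that also passed the test were found for 7 of the 55 genes (12.7%), against 7.93% of all tested genes. These were Sema4d, Plxnc1, Sema3b, Efna3, Unc5a, Sema3e and Sema7a. Clone 2 was the highest for Sema4d, Plxnc1, Unc5a, Sema3e and Sema7a, and clone 1 for Sema3b and Efna3. The highest clone was not tallied over all genes with a 2-fold difference. This split therefore cannot be called particular to guidance genes. The count of 7 depends on the libraries used. Without clone 2, 31 members passed the test, 29 of which had also passed with all clones, against 45.4% of all genes then tested. None of them differed 2-fold, the highest fold being the 1.97 of Sema3b, against 1.64% of all genes. Without clone 1 the 2-fold count was 3 (3.94% of all genes), with Sema3b, Efna3, Unc5a and Sema3e lost. Without clone 3 it was 6 (6.78% of all genes), with Sema7a lost.

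Sema4d, a ligand of Plxnb1 that is best known from lymphocytes, differed most. It had 117, 347 and 100 counts in clones 1, 2 and 3, a fold of 3.89. Clone 2 stood alone, and the other clones differed 1.19-fold. Its receptor Plxnb1 was lowest in clone 2. Plxnc1 was also highest in clone 2, with 96, 274 and 131 counts and a fold of 3.14, which was 1.34 without that clone. Neither gene passed the test on clones 1 and 3 alone. Its ligand Sema7a had 1246, 1867 and 989 counts, a fold of 2.11, with clone 2 the highest as well.

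Sema3e, the ligand of Plxnd1, had 803, 1570 and 1174 counts, a fold of 2.15, and its receptor was highest in clone 1 with a fold of 1.25. Sema3b went the opposite way with 367, 121 and 189 counts and a fold of 2.75, which was 1.39 without clone 1. Efna3 had the same order, with 87, 31 and 49 counts and a fold of 2.55, and without clone 1 the fold was 1.41 and no longer passed (chi-square, Benjamini-Hochberg adjusted p = 0.263). In both, clone 1 was high and clone 2 low. Unc5a, at 21, 45 and 31 counts, differed 2.36-fold and was below 1 CPM in clone 1. It did not pass the test without clone 1 or without clone 2.

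Other measures also differed between the clones. The 8 macrophage markers, Csf1r with 1165, 5001 and 1209 counts among them, were all highest in clone 2. Sema4d, Plxnc1, Unc5a, Sema3e and Sema7a were also highest in that clone, and Sema3b and Efna3 in clone 1. The 6 markers of cycling cells were likewise all highest in clone 2, with sums of 368, 723 and 609 CPM in clones 1, 2 and 3. The summed fibroblast markers were 53004, 42980 and 41722 CPM, mostly from Col1a1 and Col1a2. Singly, 6 of the 8 fibroblast markers were highest in clone 1, and the other 2, Pdgfra and Thy1, in clone 2. The part of these marker groups in the differences was not tested, and in bulk RNA more cells of a type cannot be told apart from more RNA per cell.

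**Figure D3:**
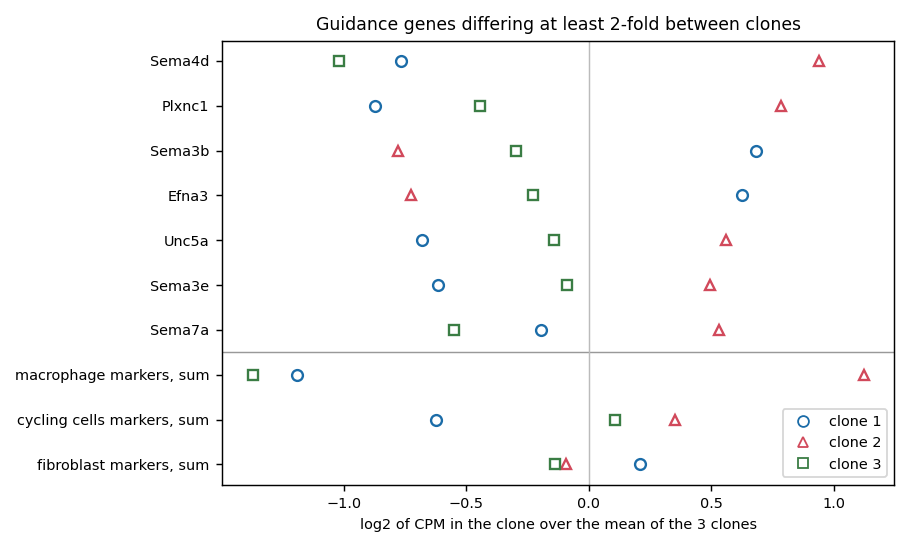
The 7 guidance genes that differed at least 2-fold between clones (above the line) and the summed markers of macrophages, cycling cells and fibroblasts (below it), as log2 of the CPM in clone 1 (circles), clone 2 (triangles) and clone 3 (squares) over the mean of the 3 clones. Clone 2 lies farthest right for Sema4d, Plxnc1, Unc5a, Sema3e and Sema7a and for the macrophage and cycling sums, and farthest left for Sema3b and Efna3.

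The 46 genes that passed the test were not all turned toward a single library. Their highest value was in clone 1 for 19, in clone 2 for 20 and in clone 3 for 7, and their lowest value in the same clones for 15, 19 and 12. Over all genes that passed, the shares highest in clones 1, 2 and 3 were 38.0%, 37.5% and 24.5%, and the shares lowest there were 43.3%, 34.0% and 22.8%. Among the leading receptors the differences were small. Unc5b differed 1.22-fold, Nrp1 1.31-fold, Plxnb2 1.13-fold, Plxna1 1.14-fold and Epha2 1.27-fold over the clones.

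Genes that act with or below these receptors were mostly expressed. Of 47 further pathway genes, 37 were expressed, and 26 of the 40 tested passed the chi-square test (65.0%), near the 62.5% of all genes. A 2-fold difference was found for 5 of the 40, against 7.93% of all genes: Flrt2, Fes, Srgap1, Ngef and Vav3. Among the effectors of plexins, 15 of 16 genes were expressed. Dpysl3, of the collapsin response mediator family, was the highest at 18356, 11273 and 19300 counts and 101 ± 22.1 CPM per kb (SD, n = 3), followed by Rras, a small GTPase inactivated by plexins, at 53.1 ± 7.23, and Farp1 at 38.4 ± 4.59 CPM per kb. Only Dpysl5 was not expressed, at 2, 3 and 2 counts.

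All 5 effectors of Robo were expressed, with Nck2, an adaptor, at 6.32 ± 0.261 and Srgap2 at 4.23 ± 0.210 CPM per kb (SD, n = 3). Among Eph effectors 6 of 10 were expressed, led after the Nck adaptors by Vav2 at 2.44 ± 0.124 CPM per kb, and Grip2 had 0 counts in every clone. Both proteases were expressed: Adam10, which sheds ephrins, had 36.6 ± 4.85 CPM per kb, and Furin, which cuts class 3 semaphorins, had 32.3 ± 0.643. Of the 5 co-receptors of semaphorins, Itgb1, the integrin chain bound by Sema7a, was by far the highest with 1108 ± 69.7 CPM per kb. The repulsive guidance molecules Rgma and Rgmb, ligands of Neo1, had 1.92 ± 0.135 and 3.63 ± 0.843 CPM per kb.

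The order of levels also depends on which length a count is divided by. When each count was divided by the length of the transcript that has the longest coding region, Nrp1 reached 204, 267 and 215 CPM per kb (mean 229 ± 34.0, SD, n = 3) and stood above Unc5b at 182 ± 18.0 and Plxnb2 at 141 ± 10.2. The exons of Nrp1 cover 9785 bp in all its transcripts together but 3597 nt in that transcript. Slit2 rose in this measure to 27.9 ± 1.31 CPM per kb, above the mean of Slit3 at 21.2 ± 6.49, although clone 2 of Slit3 lay at 28.3. Unc5c moved from 2.43 to 11.95 CPM per kb. Sema6a likewise exceeded Sema6c, with 4.10 ± 0.111 against 3.34 ± 1.03 CPM per kb. In the other 15 families the leading gene stayed the same. Summed over all members by this length, receptors stood at 828 ± 33.7 and ligands at 277 ± 15.0 CPM per kb, and Slits (49.3 ± 6.94) remained above Robo receptors (6.53 ± 0.231).

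**Figure D4:**
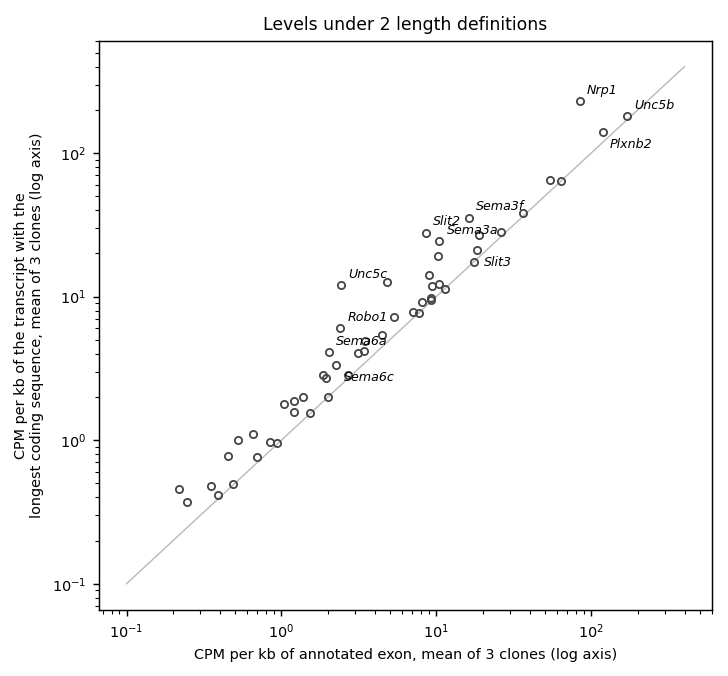
Mean level of each expressed guidance gene over 3 clones, in CPM per kb of all annotated exons (horizontal, log axis) and in CPM per kb of the transcript that has the longest coding region (vertical, log axis), with a line of equality. Points above the line have annotated exons outside that transcript, and Nrp1 (84.0 against 229) and Slit2 (8.55 against 27.9) lie well above it.

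Promoter sequences of RefSeq (GRCm38.p6), 250 bases before to 50 after the start of transcription, were matched for 59 of the 68 genes. CpG dinucleotides, the sites of DNA methylation, are dense at the promoters of many broadly expressed genes. The 100 bases before the start are shown for 4 genes, 5′ to 3′ on the strand of the gene, with CG in capitals. They are the highest expressed gene, the highest one with a CpG ratio under 0.6, and the genes with most and fewest CpG of those at or below the floor.
Unc5b (chr10:60831582-60831681, minus strand): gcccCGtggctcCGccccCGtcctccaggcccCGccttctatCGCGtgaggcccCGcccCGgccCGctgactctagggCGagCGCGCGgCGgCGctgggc
Nrp1 (chr8:128358973-128359072, plus strand): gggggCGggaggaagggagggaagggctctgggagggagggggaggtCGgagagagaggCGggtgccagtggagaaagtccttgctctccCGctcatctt
Epha8 (chr4:136956817-136956916, minus strand): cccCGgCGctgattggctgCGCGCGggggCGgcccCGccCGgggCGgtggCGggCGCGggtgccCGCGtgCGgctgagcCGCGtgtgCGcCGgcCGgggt
Robo4 (chr9:37401872-37401971, plus strand): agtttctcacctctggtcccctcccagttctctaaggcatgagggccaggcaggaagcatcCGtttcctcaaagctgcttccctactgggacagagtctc

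In the window of 300 bases, Unc5b held 36 CpG and Nrp1 14, while Epha8, with 1 count in all 3 libraries together, held 56 and Robo4 held 2. A high CpG content was thus present at a gene whose transcript was not detectable here. Nrp1 was the highest of the genes with a low ratio of observed to expected CpG, at 0.474. Its start in RefSeq lies 469 bases downstream of the start of the gene in GENCODE, and that of Robo4 lies 75 bases downstream. By GENCODE, the printed bases of Nrp1 and most of those of Robo4 thus lie within the gene. Over the 47 expressed guidance genes with a promoter the median was 23.0 CpG (range 2 to 42), and over the 12 that were not expressed it was 14.5 (range 2 to 56). The medians over all genes were 21 for 8708 expressed and 4 for 7114 that were not expressed. A CpG ratio of at least 0.6 was found for 29 of the 47 expressed (61.7%) and 6 of the 12 other guidance genes, against 74.8% and 17.8% over all genes. The letters TATAAA, on either strand in any window of a gene, occurred for 2 of the 59 genes (3.39%), Efnb2 and Slit2. Over all 15822 genes in the table with a promoter, the share was 14.3%. Split by expression, it was 4.26% of the expressed guidance genes against 8.35% of all expressed genes. Among genes that were not expressed it was 0% of the guidance genes and 21.6% of all genes.

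**Figure D5:**
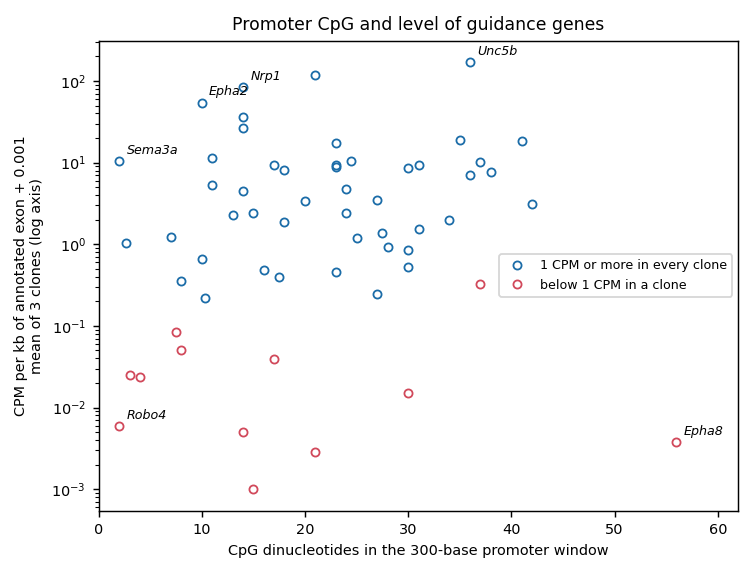
CpG dinucleotides in the 300-base promoter window (horizontal, mean over windows where a gene has several) and level in CPM per kb of annotated exon plus 0.001 (vertical, log axis, mean of 3 clones) for the 59 guidance genes with a RefSeq promoter, in blue for expressed genes and red for the others. Expressed genes range from 2 to 42 CpG and the others from 2 to 56, with Epha8 at the far right and near the bottom.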

How the data were processed

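RNA-seq libraries of 3 WT MEF clones were used, all of 1 group, taken from the sample titles. The deposited values are raw counts per gene. Single-end reads of 86 nt were aligned by the authors with TopHat 2.0.0, which ran Bowtie 0.12.7, at no more than 2 mismatches and 5 positions per read. Samtools 0.1.16 was used as well, and HTSeq gave the counts. The methods name mm10, and the submitters' processing notes name mm9. The HTSeq version, annotation and strand setting are not given in the sources used here, so reads of paralogs and antisense genes may be shared or lost.

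TMM factors (edgeR 4.0.16, R 4.3.3) were 0.984, 0.998 and 1.02. Exon lengths came from GENCODE M21 (GRCm38), which matched 21712 of 21782 genes by symbol or synonym and all 68 guidance genes. With 1 group, edgeR has no contrast to test, so the chi-square test with 2 degrees of freedom was used and tested on simulated data (Python 3.11.15, scipy 1.17.1). With 1 library per clone it cannot tell a clone from its culture or library.

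Values were given for the 2 highest expressed genes per family, genes differing at least 2-fold with a mean of 1 CPM or more, genes with at most 3 counts in every clone, and up to 3 genes per further pathway group. Neo1, Dcc and the Flrt genes are of those groups. Values of other genes with low counts, and neighbouring genes, were added after they were seen. The members and lists were chosen with earlier results of these data known. Alternatives were DESeq2 1.42.0 size factors, total counts, other limits on low counts, other lengths and leaving out each clone. ChIP-seq and imaging were not analysed here.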

Additional observations from a re-analysis of the deposited data

How the results depend on the processing

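With other size factors or limits on low counts, 49 to 61 guidance genes were expressed (53 as reported) and 45 to 49 differed between clones (46). Over all 21782 genes, 10672 to 14306 were expressed under these settings, and 7384 to 7834 of 11367 to 16294 tested genes differed. Leaving out each clone gave 53 to 54 expressed, 31 to 43 differing and 0 to 6 differing at least 2-fold (7). The count of 0 was without clone 2, when 203 of 12413 tested genes passed the same rule. Over all genes, the fits without a clone gave 11442 to 11487 expressed and 31.7% to 53.0% of tested genes differing. On the log2(CPM + 1) scale 5 differed 2-fold, against 549 of 12218 tested genes. With no filter on low counts 9 did, against 1356 of 16294. The leading gene of a family was the same in 15 of 17 families per kb of the transcript that has the longest coding region and in 12 for CPM not divided by length, where Sema3a, Sema6a, Efna5, Efnb2 and Slit2 led. Without clone 1 it was the same in 16, with Sema6a in place of Sema6c. Of 33 levels, 22 moved by more than the spread between clones (SD) with the transcript length, and none with other size factors. Leaving out 1 of 3 clones cannot move a mean by as much as that SD, so those fits do not test the levels. Each of the 7 genes with a 2-fold difference lost that call in at least 1 of the 3 fits without a clone. At folds of 2.11 to 3.89 over 3 clones such a loss had to occur, so it is no measure of robustness. No paired analysis was possible because all libraries belong to 1 group. The depth limits statements on genes with 3 counts or fewer.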
